A study of Mus musculus with 48 samples.

Results

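The genes described here encode secreted proteins that start or strengthen Wnt signalling: the Wnt ligands Wnt2b, Wnt3, Wnt4, Wnt5a, Wnt5b, Wnt6, Wnt9b and Wnt11, and the R-spondins Rspo1 and Rspo3. They were taken from a list of 10 symbols. All 10 were among the 54532 genes of the deposited count table, and all 10 passed the filter on low counts, which kept 21986 genes for testing. Total RNA came from pieces of C57Bl/6J mouse intestine 2 cm long, taken through the whole thickness of the wall. The duodenum piece was cut next to the pylorus and the ileum piece just before the caecum. The 8 ages were 0, 2, 4, 6 and 8 days and 2, 3 and 4 weeks after birth, in 3 numbered samples for each region and age, 48 in all. Mice of both sexes, with no transgene or treatment named, stayed with the dam until the age of the week 3 samples and then ate chow. The labels call the housing germ-free, and the microbial status of the mice could not be checked here. No label says whether the samples of a group came from separate mice, so the p-values measure the spread between samples.

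Wnt proteins bind Frizzled receptors, which work together with Lrp5 or Lrp6 in the canonical pathway. Binding stops the destruction of beta-catenin, which then switches on target genes with TCF/LEF factors. R-spondins bind Lgr receptors and keep the ligases Rnf43 and Znrf3 from removing Frizzled receptors, so they strengthen a Wnt signal without being one. In the adult small intestine this signal maintains the stem cells at the crypt base. Wnt3 is made there by Paneth cells, whereas Wnt2b, Wnt4, Wnt5a and the R-spondins are known mainly from mesenchymal cells under the epithelium. Crypts and Paneth cells form in the mouse after birth, during the ages sampled here.

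The estimated counts summed to between 16824021 and 65042327 per sample, and levels are given as CPM, the read count scaled to a common, normalised library size. In the 46 samples analysed, 1 count was worth 0.0179 to 0.0668 CPM. The 2 samples numbered 3 at day 6 were left out because genes of regional identity went against their labels. Onecut2, a duodenal transcription factor gene, was at 21.0 CPM in the sample labelled duodenum and at 360 CPM in the sample labelled ileum, where the other samples ranged from 133 to 372 CPM in duodenum and from 0.370 to 89.8 CPM in ileum. Duodenum day 4 sample 3 stood apart from its group, with a mean rank correlation (Spearman) of 0.917 to the other samples of that group. Ddx3y, a gene of the Y chromosome, was at 1 CPM or more in 16 of the 46 samples and in none of day 6, day 8 or week 4, so sex was not balanced over age. Duodenum day 0 samples 2 and 3 held both Ddx3y, at 21.1 and 25.1 CPM, and Xist, the RNA of the inactive X chromosome, at 745 and 816 CPM. In the other samples with Ddx3y, Xist reached at most 8.01 CPM, so these 2 libraries hold RNA of both sexes. They are 2 of the 3 duodenal samples of day 0. Some results that rest on that group are given without them too, the remaining sample being assumed to vary like the other groups. Other such results are given only with them. Smooth muscle genes summed to only 4.68 to 194 CPM and fibroblast genes to 13.2 to 731 CPM, against 2953 to 9237 CPM for 6 epithelial genes. Muscle markers were thus present but low, although the pieces are labelled as full thickness. In bulk tissue, fewer cells of a type and less RNA per cell cannot be told apart.

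Compared per kilobase of merged exon, the levels of the ligands formed a graded series. The mean level over the 16 groups was 1.41 CPM per kb for Wnt5a, 1.28 CPM per kb for Wnt3 and 1.16 CPM per kb for Wnt4. Rspo1 was at 0.504 CPM per kb, Wnt2b at 0.314 CPM per kb, Wnt9b at 0.196 CPM per kb and Wnt5b at 0.112 CPM per kb. Wnt6 and Rspo3, at 0.0720 and 0.0671 CPM per kb, and Wnt11, at 0.0421 CPM per kb, were the lowest. Many samples of the lowest 4 genes held fewer than 10 counts, and their values carry a correspondingly large counting error.

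The canonical ligand gene Wnt3 and its neighbour Wnt9b rose from birth to day 8 in both regions, and no other of the 10 genes was called higher at that step. Wnt3 and Wnt5a fell and Wnt6 rose between week 2 and week 3 in both regions. Wnt4 fell and then rose again in the duodenum. Over all 8 ages, the level changed in 5 of the 10 genes in the duodenum (Wnt3, Wnt4, Wnt5a, Wnt6 and Wnt9b), where 67.4% of all genes tested were called. In the ileum 6 of the 10 changed (Wnt3, Wnt5a, Wnt6, Wnt9b, Wnt11 and Rspo1), against 58.7% of all genes tested. A gene is called here when the edgeR quasi-likelihood test gives a p, adjusted by Benjamini and Hochberg over all genes tested, under 0.05. Of 10 genes, 5 and 6 are near those shares, so that a change with age does not set the list apart. Without duodenum day 4 sample 3, Rspo3 was called as well in the duodenum, making 6 of 10 (edgeR adjusted p = 0.0294, against 0.542 with it).

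**Figure D1:**
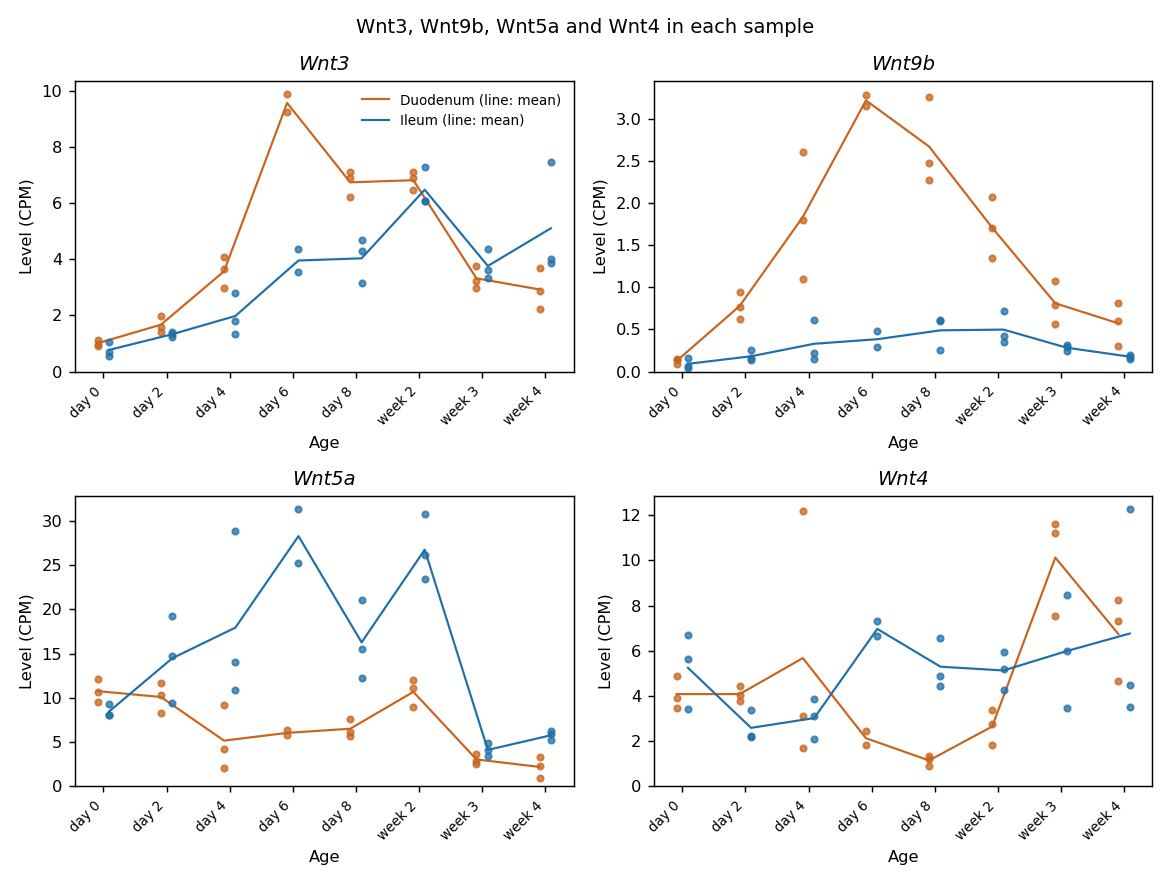
Level of Wnt3, Wnt9b, Wnt5a and Wnt4 (vertical axis, CPM) at 8 ages (horizontal axis, evenly spaced and not to scale in time), with a point for each sample and a line through the group means, duodenum in orange and ileum in blue. Wnt3 and Wnt9b rose after birth with a duodenal peak at day 6. Wnt5a in ileum had its highest means at day 6 and week 2 and its lowest at week 3 and week 4. Wnt4 in duodenum was lowest at day 8 and highest at week 3.

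Wnt3 (ENSMUSG00000000125) lies on the plus strand at chr11:103774150-103817957 of mm10 (GRCm38), and Wnt9b (ENSMUSG00000018486) lies on the minus strand at chr11:103727364-103749821. They are adjacent protein-coding genes that point away from each other, with 24329 bases between their starts and no other GENCODE gene in between. The RefSeq span of Wnt9b runs to base 103775272 and so passes the start of Wnt3. Because these neighbours rose at the same step, the sequence just upstream of each is shown, from the RefSeq table on GRCm38.p6. The stretches end at the GENCODE starts and are 225 and 250 bases long. Each reads 5′ to 3′ on the gene's own strand, at chr11:103773925-103774149 (plus strand) for Wnt3 and chr11:103749822-103750071 (minus strand) for Wnt9b. Capitals mark the GC box GGGCGG and the CCAAT box CCAAT, each on either strand.
Wnt3: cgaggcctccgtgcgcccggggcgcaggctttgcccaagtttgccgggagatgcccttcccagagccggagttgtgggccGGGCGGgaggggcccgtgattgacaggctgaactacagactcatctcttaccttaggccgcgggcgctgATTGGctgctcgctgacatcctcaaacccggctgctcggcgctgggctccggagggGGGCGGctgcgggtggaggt
Wnt9b: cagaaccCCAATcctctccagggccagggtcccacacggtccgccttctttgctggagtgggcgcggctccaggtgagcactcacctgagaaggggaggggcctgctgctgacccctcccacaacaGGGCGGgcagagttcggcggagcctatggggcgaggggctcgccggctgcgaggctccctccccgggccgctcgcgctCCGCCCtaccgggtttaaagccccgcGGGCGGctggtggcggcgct
Both stretches are rich in G and C, 68.9% for Wnt3 and 72% for Wnt9b, where the median of all 32851 promoters in the table is 52.4% over 250 bases. The Wnt3 stretch holds 2 GC boxes and 1 CCAAT box, and the Wnt9b stretch 3 and 1. Over all promoters, 32.7% of the 250-base windows hold a GC box and 33.8% a CCAAT box. Neither stretch holds the TCF/LEF motif ATCAAAG, which 3.21% of all windows hold, nor the TATA box TATAAA, which 12.4% hold, nor the CDX motif TTTATG, which 10.8% hold, each searched on both strands. Of the 10 ligand genes, 8 have an entry in the promoter table, with 11 promoters in all, and 8 of these 11 hold a GC box. Among them, the TCF/LEF motif was found upstream of Wnt11 and Wnt5b.

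Wnt3 began at 0.970, 1.14 and 0.911 CPM in the 3 duodenal samples of day 0. It stood at 9.24 and 9.87 CPM in the 2 samples of day 6, and at 6.20, 7.11 and 6.90 CPM at day 8. Every duodenal sample of day 8 was above every sample of day 0, and the rise was 2.75 ± 0.27 SE in log2 units (edgeR adjusted p = 2.73e-10). Without the day 0 samples of both sexes it was 2.68 (edgeR adjusted p = 1.27e-05). In the ileum Wnt3 rose from 0.554, 1.04 and 0.713 CPM at day 0 to 3.13, 4.68 and 4.27 CPM at day 8, again without overlap. That rise was 2.40 ± 0.27 SE (edgeR adjusted p = 3.15e-08). The duodenal level was highest at day 6 and the ileal level at week 2, when the ileal samples held 6.06, 6.06 and 7.29 CPM.

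After week 2 Wnt3 fell in both regions. Duodenal Wnt3 fell from 6.44, 6.89 and 7.10 CPM at week 2 to 3.76, 3.21 and 2.98 CPM at week 3, with no overlap (log2 difference -1.04 ± 0.24 SE, edgeR adjusted p = 0.00174). It was at 2.87, 3.67 and 2.23 CPM at week 4, still above day 0 (log2 difference 1.55 ± 0.26 SE, edgeR adjusted p = 7.79e-06). In the ileum Wnt3 fell to 3.60, 4.34 and 3.33 CPM at week 3 (log2 difference -0.78 ± 0.25 SE, edgeR adjusted p = 0.0146). The ileal fall was not called without ileum week 2 sample 3 or without ileum week 3 sample 3, with an edgeR adjusted p of up to 0.0659. At week 4 the ileal samples were at 3.85, 7.45 and 4.01 CPM, which overlapped week 2 and lay above day 0 by 2.75 ± 0.28 SE in log2 units (edgeR adjusted p = 1.30e-10). In the order of duodenal means, 4 of the 7 neighbouring pairs of ages did not overlap, and in the ileum 2 of 7.

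Duodenum exceeded ileum in Wnt3 at day 4, day 6 and day 8 without overlap, the ileal mean being 0.413 of the duodenal mean at day 6. At week 4 the order was turned, with the ileal mean 1.75 times the duodenal mean and no overlap. The change with age differed between the regions (edgeR test of region by age, adjusted p = 0.00161). Averaged over the 8 ages, Wnt3 was lower in ileum, the log2 difference being -0.33 ± 0.09 SE (edgeR adjusted p = 0.00193).

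Genes of Paneth cells, the known adult source of Wnt3, moved with part of this course and against another part. All 6 of the Paneth genes listed (Lyz1, Mmp7, Ang4, Itln1, Defa17 and Defa24) rose from day 0 to day 8 and from day 0 to week 4 in both regions. Without the day 0 samples of both sexes, 4 of the 6 were called from day 0 to day 8 in duodenum and 6 from day 0 to week 4. Their summed duodenal level went from 101 to 132 CPM at day 0, to 403 to 469 CPM at day 8 and to 2217 to 3660 CPM at week 4. At week 2 the duodenal Paneth sum was 790 to 1397 CPM, so it was higher at week 4 than at week 2, whereas Wnt3 was lower. The part of Paneth cells in the level of Wnt3 was not tested.

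Wnt9b, a canonical ligand known for its role in kidney tubule formation, rose in the same window and was higher in duodenum. In the duodenum it rose from 0.139, 0.0911 and 0.146 CPM at day 0 to 3.29 and 3.16 CPM at day 6 and 2.48, 2.28 and 3.27 CPM at day 8. No sample of day 8 overlapped day 0, and the rise was 4.33 ± 0.48 SE in log2 units (edgeR adjusted p = 3.60e-09). Ileal Wnt9b rose from 0.0370, 0.167 and 0.0713 CPM to 0.605, 0.610 and 0.255 CPM, without overlap (log2 difference 2.40 ± 0.54 SE, edgeR adjusted p = 0.00124). The ileal day 0 samples held only 1, 4 and 3 counts. Without the day 0 samples of both sexes the duodenal rise was 4.13 (edgeR adjusted p = 0.000136).

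By week 4 duodenal Wnt9b was down to 0.600, 0.306 and 0.813 CPM, above day 0 by 2.10 ± 0.48 SE (edgeR adjusted p = 0.000546, and 0.0433 without the day 0 samples of both sexes). The step from week 2 to week 3, with a log2 difference of -1.09 ± 0.40 SE, just missed the threshold (edgeR adjusted p = 0.0501), and it was called without duodenum week 3 sample 2, with the 40 samples of the normalised tables, with only these groups in the model and with DESeq2. The mean of Wnt9b was lower in ileum than in duodenum at all 8 ages, without overlap at 7 of them. The difference over all ages was -1.95 ± 0.17 SE in log2 units (edgeR adjusted p = 2.48e-12). No difference in its change with age was called (edgeR test of region by age, adjusted p = 0.185).

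The ratio of the neighbours within a sample needs no scaling of libraries, and it too differed by region. For every 100 counts of Wnt3, the 23 duodenal samples held a median of 32.0 counts of Wnt9b, from 8 to 71.8, and the 23 ileal samples a median of 9.87, from 2.08 to 21.9. At 7 of the 8 ages every duodenal sample had the higher ratio. The duodenal pieces also held genes of pancreatic acinar cells, up to 526 CPM summed over 7 genes, and of gastric mucosa, up to 76.3 CPM over 5 genes. In the ileum these sums reached 24.3 and 15.1 CPM. Like Wnt3 and Wnt9b, the gastric sum in duodenum had its lowest mean at day 0 and its highest at day 6. Its mean was 0.341 CPM at day 0, 10.3 CPM at day 2, 19.98 CPM at day 4 and 49.9 CPM at day 6. It was 16.3 CPM at day 8, 10.003 CPM at week 2, 3.52 CPM at week 3 and 5.63 CPM at week 4. Between day 8 and week 2 it fell, as did mean Wnt9b, while mean duodenal Wnt3 was 6.73 and then 6.81 CPM. From week 3 to week 4 the gastric mean rose, while Wnt3 fell from 3.32 to 2.92 CPM and Wnt9b from 0.811 to 0.573 CPM. Of the 4 gastric genes tested, Gkn3 was called higher at day 8 than at day 0 in duodenum, by 5.44 in log2 units (edgeR adjusted p = 0.000441). The 2 duodenal samples of day 6 held gastric sums of 23.4 and 76.3 CPM, with Wnt9b at 3.29 and 3.16 CPM. At day 0 Gkn1, Gkn2 and Tff1 were at 0 in every duodenal sample. The part of attached pancreas or stomach in Wnt9b or Wnt3 was not tested.

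Each ligand gene was also set against 12353 well-expressed genes by the correlation of group mean log2 CPM over the 16 groups. For Wnt3 the most similar genes were Axin2, a negative feedback gene and standard readout of canonical Wnt signalling, at a Pearson r of 0.964, and Ephb3, a Wnt target that guides cell position in crypts, at 0.948. For Wnt9b they were Cdca7, a cell cycle gene, at 0.976, and Auts2 at 0.973. These 16 means share libraries and the same ages, and the genes were picked as the best of many, so the values only describe likeness. Axin2 was at 13.1, 12.9 and 13.4 CPM in duodenum at day 0, at 134 and 126 CPM at day 6, and at 62.7, 73.1 and 63.7 CPM at week 4. Like Wnt3, it had its duodenal peak at day 6 and its ileal peak at week 2, where the samples held 94.5, 86.8 and 86.5 CPM.

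**Figure D2:**
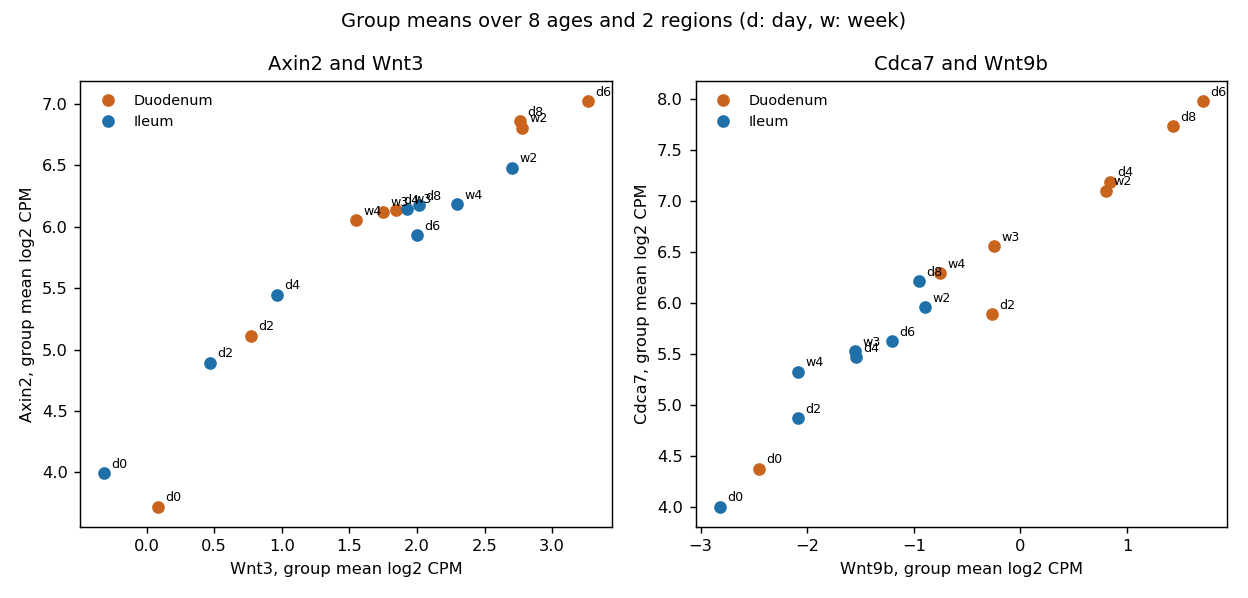
Group mean log2 CPM of Axin2 against Wnt3 (left) and of Cdca7 against Wnt9b (right), with a point for each of the 8 ages in duodenum (orange) and ileum (blue). The points run from day 0 at the lower left to duodenal day 6 at the upper right, with Pearson r of 0.964 and 0.976 over the 16 groups.

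Wnt2b, a canonical ligand made by mesenchymal cells, differed by region and had no called change with age. Its duodenal group means lay between 0.685 and 1.33 CPM and its ileal means between 1.27 and 2.56 CPM. The edgeR adjusted p of the age effect was 0.613 in duodenum and 0.456 in ileum, and none of the 7 neighbouring pairs of ages in either region was free of overlap. At day 6 the samples held 0.955 and 0.656 CPM in duodenum and 3.87 and 1.26 CPM in ileum, so the ileal pair itself was far apart. Over all ages ileum was higher by 0.87 ± 0.17 SE in log2 units (edgeR adjusted p = 3.73e-05), with the ileal mean above the duodenal mean at 7 of 8 ages. Its closest genes were Colec12 (r = 0.921) and the fibroblast collagen gene Col3a1 (r = 0.914).

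Wnt5a (ENSMUSG00000021994, chr14:28504750-28527448, plus strand), which mostly acts without beta-catenin and directs cell polarity and gut elongation, fell in both regions between week 2 and week 3. Ileal samples of day 0 held 9.28, 8.06 and 8.03 CPM. The day 6 samples held 25.2 and 31.3 CPM, and those of week 2 held 23.4, 26.1 and 30.7 CPM. At week 3 the ileal samples were at 4.08, 4.87 and 3.38 CPM, far below every sample of week 2. The mean at week 2 was 6.51 times that at week 3 (log2 difference -2.70 ± 0.38 SE, edgeR adjusted p = 4.71e-07). At week 4 the ileal values were 6.23, 5.18 and 5.88 CPM, all above week 3 but below day 0.

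The duodenal fall of Wnt5a went from 8.96, 12 and 11.1 CPM at week 2 to 2.90, 3.70 and 2.49 CPM at week 3. The samples did not overlap (log2 difference -1.82 ± 0.37 SE, edgeR adjusted p = 0.000279). Before that, the regions differed: ileal means were 3.47 times the duodenal mean at day 4, 4.69 times at day 6 and 2.50 times at day 8, without overlap. At day 0, by contrast, the 3 ileal samples lay below the 3 duodenal samples, which held 9.54, 10.6 and 12.1 CPM. The change with age differed between the regions (edgeR test of region by age, adjusted p = 0.00704). Over all ages ileum was higher by 1.08 ± 0.13 SE (edgeR adjusted p = 5.90e-09).

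Summed genes of some other cell types changed at the same step. Enteric neuron and glia genes summed to 114 to 124 CPM in ileum at week 2 and 15.2 to 22.7 CPM at week 3, and in duodenum to 53.1 to 75.6 CPM and 14.8 to 18.3 CPM. The list of telocyte and trophocyte genes, for mesenchymal cells beside the epithelium, summed to 152 to 166 CPM in ileum at week 2 and 48.5 to 68.2 CPM at week 3. Only 1 of the 6 genes in that list was called lower at this step in ileum. The 8 fibroblast genes summed to 94.2 to 234 CPM in ileum at week 2 and to 101 to 155 CPM at week 3, which overlap. The fibroblast sums of the duodenum were 44.98 to 87.7 CPM and 33.1 to 38.9 CPM. None of the 8 fibroblast genes was called at this step in either region. The part of these cells in the fall of Wnt5a was not tested. The genes most like Wnt5a were Msrb3 (r = 0.948) and Zcchc24 (r = 0.948). Wnt5a overlaps the opposite-strand gene Gm2670 by 358 bases, and the strand setting of the counting is not given in the sources used here. Gm2670 itself had at most 8 counts in a sample.

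Wnt4 (ENSMUSG00000036856, chr4:137277489-137299726, plus strand), a ligand known from kidney and ovary development and from gut mesenchyme, changed with age in the duodenum, down to day 8 and up at week 3. It fell from 3.91, 4.87 and 3.46 CPM at day 0 to 0.901, 1.2 and 1.32 CPM at day 8, with no overlap (log2 difference -1.83 ± 0.46 SE, edgeR adjusted p = 0.00149). Without the day 0 samples of both sexes the difference was -1.88 (edgeR adjusted p = 0.0201). Many genes of other wall cells, though not all, were lower at the same step in duodenum. The fibroblast sum was 123 to 234 CPM at day 0 and 31.8 to 79.8 CPM at day 8, with 4 of 8 genes called lower, among them Pdgfra at a log2 difference of -5.43. The smooth muscle sum was 17.5 to 21.6 CPM and then 4.68 to 7.37 CPM, with 2 of 6 called lower. All 5 endothelial genes and 4 of the 6 telocyte and trophocyte genes were called lower. Among the last were Bmp5 (-4.73) and the weakly expressed Foxl1 (-5.42, mean log2 CPM -1.91). Cd81 of the same list was called higher, at a log2 difference of 1.02 (edgeR adjusted p = 5.18e-06). The telocyte and trophocyte sum was higher too, at 107 to 118 CPM at day 0 and 135 to 142 CPM at day 8. In ileum the fibroblast sums of the same ages were 236 to 355 CPM and 231 to 472 CPM, which overlap. The part of these cells in the duodenal fall of Wnt4 was not tested. By week 2 duodenal Wnt4 was at 3.36, 2.75 and 1.82 CPM, and the week 3 samples held 11.2, 11.6 and 7.52 CPM. The samples of week 3 were all above those of week 2 (log2 difference 1.94 ± 0.45 SE, edgeR adjusted p = 0.00146). The values of week 4, at 7.30, 4.67 and 8.24 CPM, overlapped those of day 0, and no difference was called (edgeR adjusted p = 0.186).

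In the ileum no change of Wnt4 with age was called (edgeR adjusted p = 0.0672). Its ileal samples held 6.54, 4.44 and 4.89 CPM at day 8, and the ileal mean there was 4.63 times the duodenal mean. At week 3 the ileal samples were at 3.48, 5.98 and 8.49 CPM, and the ileal mean was 0.591 of the duodenal mean. The change with age differed between the regions (edgeR test of region by age, adjusted p = 0.00155). Duodenum day 4 sample 3, the sample that stood apart, held 12.2 CPM where the other samples of its group held 3.12 and 1.70 CPM. The same sample had the lowest Wnt5a of its group, 2.05 CPM against 9.19 and 4.24 CPM, and the highest smooth muscle sum, 41.6 CPM against 5.53 and 5.44 CPM. Of the 31-base words in Wnt4 transcripts, 6.62% also occur in transcripts of other genes, so a small part of its reads depends on how the authors' counting shared them. The small average difference of 0.37 ± 0.16 SE toward ileum (edgeR adjusted p = 0.0467) was not called when any of 27 of the 46 samples or both day 0 samples of both sexes were left out, nor without the filter on low counts, with all 48 samples or with a sex index in the model.

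Wnt5b, Wnt6 and Wnt11 were near the limit of this depth. Wnt5b, which is related to Wnt5a, had 0 to 30 counts in a sample and group means from 0.139 to 0.642 CPM. Its age effect was not called in either region (edgeR adjusted p = 0.287 in duodenum and 0.359 in ileum). Its average difference of -0.54 ± 0.24 SE toward duodenum (edgeR adjusted p = 0.0480) was not called with relative log expression size factors, without a filter on low counts, with all 48 samples, with DESeq2 or when any of 31 samples was left out.

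Wnt6, a ligand that epithelia are known to make, rose between week 2 and week 3 in both regions. In the ileum its 3 samples held 0, 1 and 0 counts at week 2 and 20, 10 and 12 counts at week 3, or 0.800, 0.483 and 0.579 CPM. All samples of week 3 were above all of week 2 (fitted log2 difference 5.68 ± 1.01 SE, edgeR adjusted p = 2.52e-05). The ratio of summed counts per library size was 72.4, with an exact binomial 95% interval of 12.3 to 2927 that covers counting error only. At week 4 ileum held 11, 20 and 8 counts, against 0, 1 and 1 at day 0 (fitted log2 difference 4.58 ± 0.95 SE, edgeR adjusted p = 0.000135). The ratio there was 28.2, with an interval of 7.30 to 241.

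In the duodenum Wnt6 rose from 1, 2 and 0 counts at week 2 to 16, 7 and 7 counts at week 3, with a ratio of 8.22 and an interval of 2.56 to 42.1. This step (fitted log2 difference 2.78 ± 0.90 SE, edgeR adjusted p = 0.0257) was not called without duodenum week 2 sample 1, week 2 sample 3, week 3 sample 1 or week 3 sample 2, with an edgeR adjusted p of up to 0.161. Its day 0 samples held 5, 3 and 7 counts, and the duodenal difference between week 4 and day 0 was not called (edgeR adjusted p = 0.0718). No regional difference of Wnt6 was called (edgeR adjusted p = 0.247). Its closest genes were Carmil1 (r = 0.943) and Peli1 (r = 0.938). Over the same step the summed epithelial genes stood at 3918 to 4292 CPM in ileum at week 2 and 7111 to 9237 CPM at week 3, and 2 of those 6 genes were called higher. The part of the epithelial share in Wnt6 was not tested.

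Wnt11, a ligand of convergent movements in the embryo, had its highest mean in ileum at week 4. There its samples held 6, 37 and 10 counts, or 0.350, 1.15 and 0.668 CPM, against 2, 3 and 3 counts at day 0, or 0.0739, 0.125 and 0.0713 CPM. The samples did not overlap (fitted log2 difference 3.02 ± 0.89 SE, edgeR adjusted p = 0.00587). Its ileal age effect (edgeR adjusted p = 0.0103) was lost without ileum week 4 sample 2, where the adjusted p was 0.134. The genes most like it were Ms4a1, which encodes the B cell protein CD20 (r = 0.840), and Epb41l2 (r = 0.835). Of the 31-base words of Wnt11, 8.02% also lie in the opposite-strand gene Gm8398, which had at most 1 count in a sample.

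**Figure D3:**
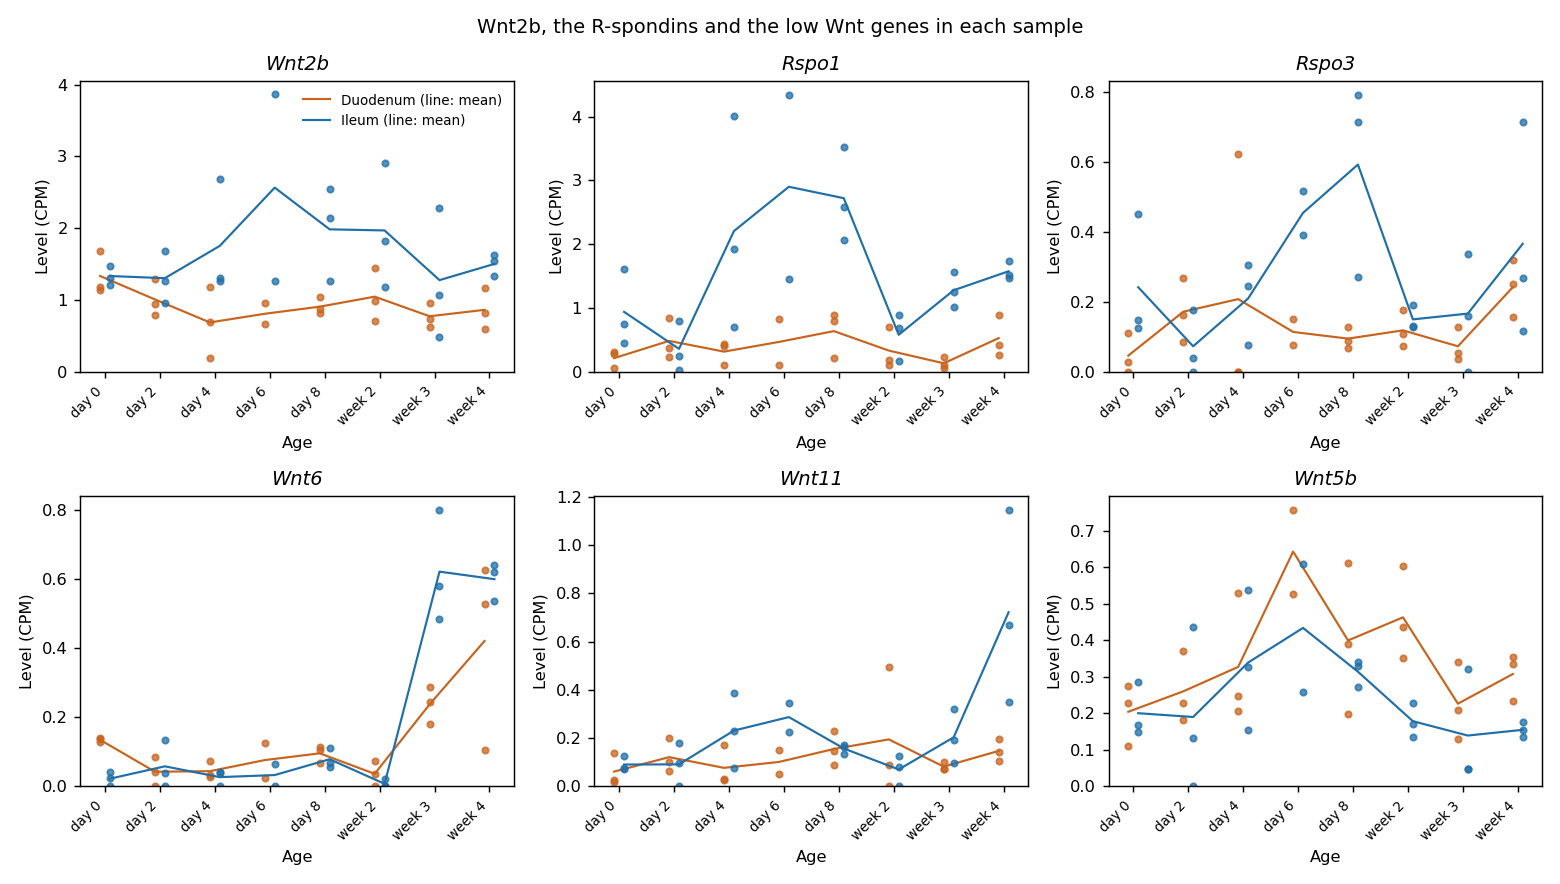
Level of Wnt2b, Rspo1, Rspo3, Wnt6, Wnt11 and Wnt5b (vertical axis, CPM, a scale for each gene) at 8 ages, with a point for each sample and a line through the group means, duodenum in orange and ileum in blue. Rspo1 and Wnt2b were higher in ileum at most ages, Wnt6 was higher from week 3, and Wnt11 had its highest mean in ileum at week 4.

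The R-spondins were both higher in ileum. Rspo1 was above its duodenal level in ileum at 7 of 8 ages by the mean, and at 6 ages every ileal sample was above every duodenal sample. At day 8 ileum held 3.52, 2.07 and 2.57 CPM and duodenum 0.220, 0.886 and 0.799 CPM. At week 3 ileum held 1.56, 1.01 and 1.25 CPM and duodenum 0.233, 0.105 and 0.0514 CPM, a ratio of means of 9.84. Over all ages the difference was 1.85 ± 0.30 SE in log2 units (edgeR adjusted p = 1.57e-06), the largest of the 10 ligand genes toward ileum.

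Rspo1 varied widely within groups. At day 4 the ileal samples held 0.692, 1.92 and 4.01 CPM, and at day 6 they held 4.34 and 1.46 CPM. Its ileal age effect (edgeR adjusted p = 0.0155) was not called without the filter on low counts or with all 48 samples, with an edgeR adjusted p of up to 0.0966. No single step between ages was called in the main edgeR fit. DESeq2 called a fall in ileum from day 8 to week 2. The edgeR log2 difference there was -2.19 ± 0.77 SE (edgeR adjusted p = 0.0778). The group mean of Rspo1 tracked that of Rspo3 more closely than any other pair of ligand genes did (r = 0.854 over the 16 groups), and its closest other genes were Gas1 (r = 0.953) and Aebp1 (r = 0.913).

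Rspo3, which supports adult crypts from cells around them, was low throughout, at 0 to 28 counts in a sample. At day 8 ileum held 0.715, 0.271 and 0.792 CPM and duodenum 0.0879, 0.127 and 0.0685 CPM, without overlap. The difference over all ages was 0.94 ± 0.37 SE (edgeR adjusted p = 0.0271). It was lost with all 48 samples, and without ileum day 0 sample 3, day 2 sample 2, week 3 sample 2 or week 4 sample 2, with an edgeR adjusted p of up to 0.169. Duodenum day 4 sample 3 held all 20 counts of its group. Its most similar gene was Dcn, which encodes decorin, a proteoglycan of connective tissue (r = 0.825). Rspo3 overlaps the opposite-strand gene Gm48159, which had at most 2 counts in a sample.

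Averaged over age, 8 of the 10 genes differed between ileum and duodenum, where 62.1% of all genes tested were called. Without duodenum day 4 sample 3 the count was 7, as Wnt5b was not called (edgeR adjusted p = 0.0792). Without the day 0 samples of both sexes it was 6, as Wnt4 and Wnt5b were not called (edgeR adjusted p = 0.0531 and 0.187). Duodenal and ileal samples entered these tests as independent. Wnt2b, Wnt4, Wnt5a, Rspo1 and Rspo3 were higher in ileum, a direction called for 31.9% of all genes, and Wnt3, Wnt5b and Wnt9b were higher in duodenum, against 30.2%. The median log2 difference of the 10 genes was 0.54 toward ileum, and that of all genes tested was 0.08. Genes of the wall's other layers moved the same way. All 8 fibroblast genes, all 6 smooth muscle genes and all 4 mesothelial genes were higher in ileum, with median log2 differences of 2.01, 1.95 and 1.99. The fibroblast sum ran from 13.2 to 234 CPM in duodenal samples and from 94.2 to 731 CPM in ileal samples. Of the 6 epithelial genes, 1 was called higher in ileum and 1 in duodenum, and 3 and 1 without the day 0 samples of both sexes. The part of these layers in the regional differences of the ligand genes was not tested.

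**Figure D4:**
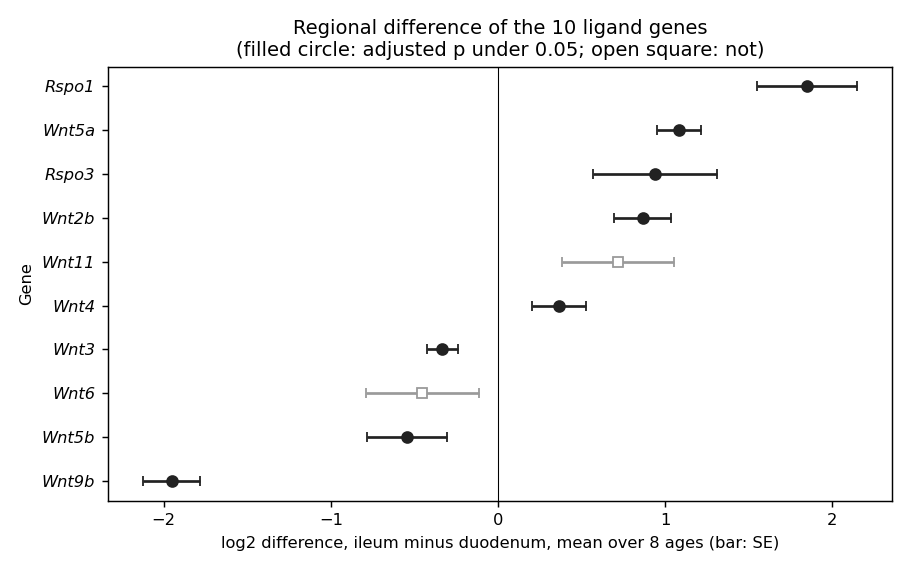
Log2 difference of each ligand gene between ileum and duodenum, averaged over 8 ages (horizontal axis, positive where ileum was higher), with bars of 1 SE. Filled circles passed an adjusted p of 0.05 with edgeR and open squares did not. Rspo1 (1.85) and Wnt5a (1.08) lie farthest toward ileum and Wnt9b (-1.95) farthest toward duodenum.

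Each step between ages moved between 0 and 4 of the 10 genes. From day 0 to day 8 in the duodenum 3 of 10 were called (Wnt3 and Wnt9b up, Wnt4 down), where 41.2% of all genes were called, 22% up and 19.2% down. In the ileum 2 of 10 were called, again Wnt3 and Wnt9b and both up, where 19.3% of all genes were called, 8.56% up and 10.7% down. From day 8 to week 2 none was called by edgeR in either region, where 15.7% of all genes were called in duodenum (6.75% up, 8.93% down) and 6.64% in ileum (4.17% up, 2.47% down). At an unadjusted p under 0.05 there was 1 gene in duodenum (Wnt4) and there were 5 in ileum (Wnt3, Wnt5a, Wnt6, Rspo1 and Rspo3). DESeq2 called 1 in duodenum (Wnt4) and 2 in ileum (Wnt3 and Rspo1).

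From week 2 to week 3 the duodenum had 4 of 10 called (Wnt4 and Wnt6 up, Wnt3 and Wnt5a down), where 18.3% of all genes were called, 7.7% up and 10.6% down. The ileum had 3 of 10 called, with Wnt6 up and Wnt3 and Wnt5a down, against 26.8% of all genes, 12.9% up and 13.9% down. Between day 0 and week 4 the duodenum had 3 of 10 called (Wnt3 and Wnt9b up, Wnt5a down), where 40.5% of all genes were called, 20.4% up and 20.1% down. The ileum had 3 of 10 called, all up (Wnt3, Wnt6 and Wnt11), against 41.9% of all genes, 21.5% up and 20.4% down. A different change with age in the regions was called for 3 of 10 (Wnt3, Wnt4 and Wnt5a; 22.4% of all genes), and for Rspo3 too without duodenum day 4 sample 3 (edgeR adjusted p = 0.0357).

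**Figure D5:**
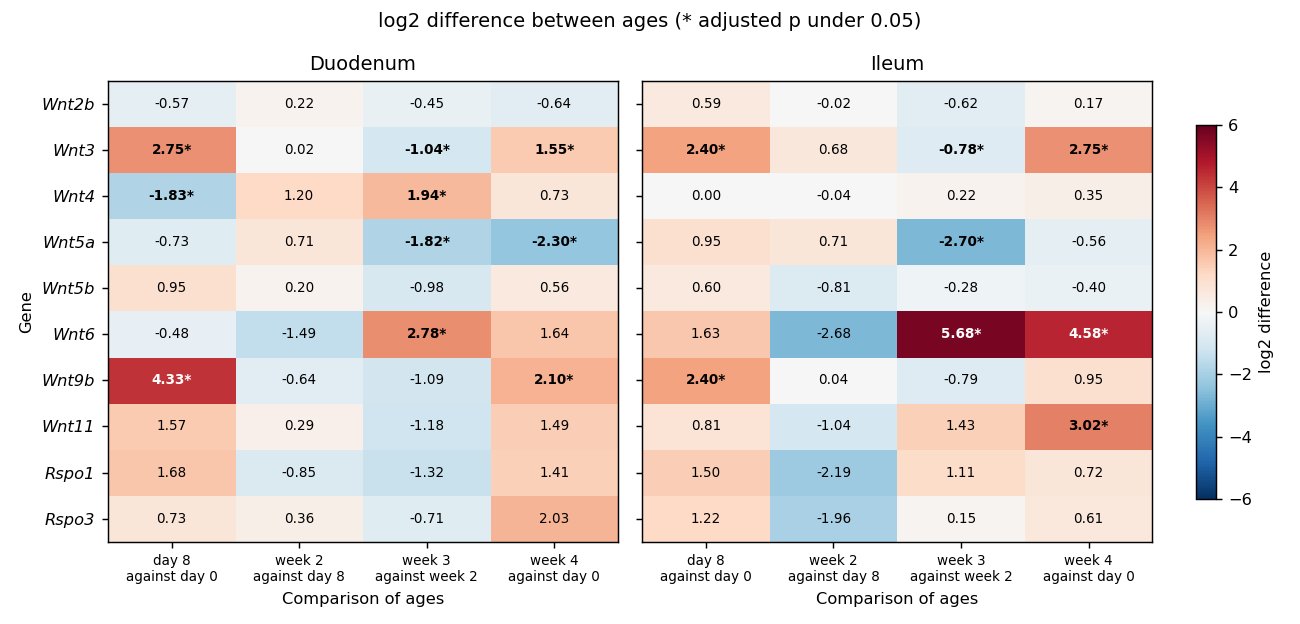
Log2 difference between ages for each ligand gene (rows) and comparison (columns), in duodenum (left) and ileum (right); red is higher at the later age, blue lower, and an asterisk marks an adjusted p under 0.05 with edgeR. Wnt3 and Wnt9b have the called rises from day 0 to day 8, and Wnt3 and Wnt5a have the called falls at week 3 in both regions.

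Of the 13 other Wnt and R-spondin genes looked for, Wnt9a alone passed the filter on low counts. Wnt9a was higher in ileum by 1.64 ± 0.26 SE in log2 units (edgeR adjusted p = 1.37e-06). Rspo2 had 20 counts in all samples together, Wnt3a had 10, Wnt1 had 12 and Wnt10a, the close neighbour of Wnt6, had 8. At these counts no level or change could be read.

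Of the genes that carry Wnt ligands out of the cell, Wls and Vps35 changed in opposite directions. Wls, the carrier that takes Wnt proteins to the cell surface, rose in duodenum from day 0 to day 8 by 1.64 ± 0.18 SE in log2 units (edgeR adjusted p = 2.78e-09), and its ileal difference was 0.33 (edgeR adjusted p = 0.189). Its change with age differed between the regions (edgeR adjusted p = 0.000964). Vps35, part of the complex that recycles Wls, was lower at week 4 than at day 0 by a log2 difference of -0.95 in duodenum and -1.07 in ileum. Of the 5 secretion genes, 3 were called between day 0 and week 4 in duodenum and 2 in ileum, near the 40.5% and 41.9% of all genes. In duodenum 2 were called without the day 0 samples of both sexes.

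Among 19 receptor and co-receptor genes tested of 21 listed, 10 rose and 3 fell from day 0 to day 8 in duodenum, where 22% of all genes rose and 19.2% fell. In ileum 5 rose and 2 fell, against 8.56% and 10.7%. In duodenum 7 rose and 1 fell, of 20 tested, without the day 0 samples of both sexes. The receptor gene Fzd7, known from intestinal stem cells, rose by 3.12 ± 0.19 SE in duodenum and 2.21 ± 0.19 SE in ileum on the log2 scale (edgeR adjusted p = 8.42e-15 and 6.43e-11). Fzd4, a receptor gene of blood vessels, fell by week 4 by a log2 difference of -1.23 in duodenum and -2.38 in ileum. Fzd2, a receptor for Wnt5a among other ligands, rose by 2.10 from day 0 to week 4 in duodenum (edgeR adjusted p = 2.32e-05). Fzd3 fell over the same span in duodenum by a log2 difference of -2.13.

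Of 12 inhibitor genes tested of 15 listed, 4 rose and 5 fell between day 0 and week 4 in duodenum, where 20.4% of all genes rose and 20.1% fell. In ileum 2 rose and 4 fell, against 21.5% and 20.4%. The duodenal counts were 3 and 4, of 13 tested, without the day 0 samples of both sexes. Sfrp5, which encodes a secreted decoy for Wnt proteins, was at a mean of 0.0486 CPM in duodenum at day 0 and 27.9 CPM at day 8. The ileal mean at day 8 was 0.803 CPM. Sfrp1, another decoy, went the other way, with a log2 difference from day 0 to day 8 of -4.51 in duodenum and -1.38 in ileum. Notum, an enzyme that removes the lipid from Wnt proteins, rose to day 8 by 2.86 in duodenum and 2.23 in ileum. By week 4 it was below day 0 in ileum, by a log2 difference of -1.67 (edgeR adjusted p = 0.0373). Apcdd1, an inhibitor at the cell surface, was lower at week 4 than at day 0 by -2.94 in duodenum and -2.59 in ileum.

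Of 14 genes for intracellular components, 7 changed from day 0 to week 4 in duodenum (3 up) and 9 in ileum (5 up), where 40.5% and 41.9% of all genes were called. The duodenal count was 5 (2 up) without the day 0 samples of both sexes. Tcf7l2, the main TCF factor of the intestinal epithelium, rose by 1.72 in duodenum and 2.19 in ileum on the log2 scale. Tcf7l1, a TCF factor that mostly represses, had differences of -2.69 and -1.73. For the Dishevelled genes, whose proteins relay the signal from Frizzled, the signs differed: Dvl1 rose by 1.07 and 0.74 and Dvl2 had differences of -1.26 and -1.72. Each of these 8 changes had an edgeR adjusted p of at most 0.00211.

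Known target genes rose as a group in the same early window as Wnt3 and Wnt9b. From day 0 to day 8, 11 of 14 rose in duodenum and 12 of 14 in ileum, and none fell, where 22% and 8.56% of all genes rose. The list of targets was drawn up with earlier results of these data known. Their median log2 difference was 1.98 in duodenum and 1.47 in ileum, against -0.06 and 0.01 for all genes tested. Ascl2, the stem cell transcription factor, rose by 5.09 ± 0.40 SE in duodenum and 3.86 ± 0.40 SE in ileum (edgeR adjusted p = 3.73e-12 and 4.00e-09). Sp5, a target that feeds back on the pathway, rose by 4.64 and 4.26. In duodenum 11 of 14 were also called higher without the day 0 samples of both sexes. Averaged over age, 13 of the 14 targets differed between regions, where 62.1% of all genes did, and 11 of them were higher in duodenum, against 30.2% of all genes. Several of these targets mark crypt cells, which themselves increase after birth, and the part of crypt cell number in their levels was not tested.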

How the data were processed

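Per the submitters' processing notes, reads were handled with STAR 2.6.1d, Salmon 0.14.2 and DESeq2 1.30.1 on mm10. The authors deposited a gene table of estimated counts, whole numbers from tximport, for 48 samples, and normalised tables for 40 of them, whose signal equals the counts divided by 1 factor per column. The strand setting is not given in the sources used here. The counts were fitted with edgeR 4.0.16 (R 4.3.3): TMM scaling, a filter on low counts over 16 groups, a robust quasi-likelihood test and Benjamini-Hochberg adjustment over 21986 genes, in 12 comparisons. The 2 day 6 samples numbered 3 were left out, since their regional genes go against their labels. Levels are CPM from TMM library sizes. Age effects test all 8 ages of a region, and the test of region by age uses both regions.

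Named genes were the 10 ligand genes, the 2 genes most like each, and up to 4 genes of each pathway list with the largest called change from day 0 to week 4. Members and lists were chosen with earlier results of these data known. Genes placed on GENCODE M21 gave exon lengths and coordinates. The fit without 2 day 0 samples of both sexes was added after seeing the data. The script was tested on simulated data. Alternatives were other scaling, filters, sample sets, a sex index, a sample number block, DESeq2 1.42.0 and leaving out each sample.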

Additional observations from a re-analysis of the deposited data

Results flagged for a closer look

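For 3 ligand genes the change with age differed between duodenum and ileum in the edgeR test of region by age, which sets the course over 8 ages in one region against that in the other. The adjusted p was 0.00161 for Wnt3, which peaked at day 6 in duodenum and at week 2 in ileum. It was 0.00155 for Wnt4, which fell to day 8 in duodenum, where ileal Wnt4 had a log2 difference of 0.00 ± 0.44 SE between day 8 and day 0. It was 0.00704 for Wnt5a, whose ileal mean was below the duodenal mean at day 0 and above it at the 7 later ages. With the 2 day 6 samples of doubtful label included, the adjusted p was 0.0916 for Wnt3, 0.251 for Wnt5a and 0.0367 for Wnt4.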

How the results depend on the processing

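No result changed direction past its threshold under any alternative run. The number of ligand genes called from day 8 to week 2, 0 of 10 in both regions, became 2 in duodenum and 3 in ileum with the 40 samples of the normalised tables and likewise 2 and 3 in a model of the compared groups alone. It was 1 in duodenum with a sex index, and 1 and 2 with DESeq2. From day 0 to week 4 in ileum it went from 3 to 1 with a mean count of at least 10, which removes Wnt6 and Wnt11 from the test. With all 48 samples the regional count went from 8 to 5 and that of region by age from 3 to 1. Leaving out each sample in turn gave 5 to 6 called for duodenal age, 6 to 7 for ileal age, 6 to 9 for region and 3 to 4 for region by age. The steps gave 3 to 3, 0 to 0, 3 to 4 and 3 to 4 in duodenum, and 2 to 2, 0 to 0, 2 to 3 and 3 to 3 in ileum. In a fit chosen after seeing the data, without the 2 duodenal day 0 samples that hold RNA of both sexes, the counts were 5 for duodenal age, 3 from day 0 to day 8, 3 from day 0 to week 4, 6 for region and 3 for region by age. Over all genes that fit called 5870 from day 0 to day 8 and 5521 from day 0 to week 4 in duodenum, against 9054 and 8909. The 3448 genes called from day 8 to week 2 in duodenum ranged from 825 to 6278, and the 1460 in ileum from 60 to 3472. The 4234 called from day 0 to day 8 in ileum went down to 2639 without 1 sample. The 4930 called for region by age were 947 with 48 samples and 9512 with 40. The cause of these shifts was not tested. With a replicate block for the sample number, the number of ligand genes called was the same in each of the 12 comparisons, 5, 3, 0, 4 and 3 in duodenum, 6, 2, 0, 3 and 3 in ileum, 8 for region and 3 for region by age, and no single ligand gene changed its call. Duodenal and ileal samples of the same age and number had a mean correlation of deviations of 0.155 (-0.363 to 0.672, 23 pairs, 16 over 0.1), against -0.079 for other numbers, and 17 duodenal samples were closest to their own number. At the 4 ages after day 0 with both sexes present, the presence of Ddx3y matched in 12 of 12 same-numbered samples of the regions, and at day 0 in 1 of 3. These are hints from the data that numbers may mark a mouse. The labels do not say so and not every pair passed 0.1, so the main tests do not pair the samples. Depth limits Wnt5b, Wnt6, Wnt11 and Rspo3, where 3 counts were worth 0.0537 to 0.200 CPM.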
